A study of Mus musculus with 16 samples.

Results

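Axon guidance ligands and receptors are the 59 autosomal genes in the count tables whose symbols name a semaphorin of classes 3 to 7, a plexin, an ephrin, an Eph receptor, a Slit, a Robo or a netrin, out of 20113 genes in all. They divide into 34 ligands (20 semaphorins, 7 ephrins, 3 Slits and 4 netrins) and 25 receptors (7 plexins, 9 EphA, 5 EphB and 4 Robo genes). A further 3 genes that fit the same symbols, Efnb1, Plxna3 and Plxnb3, lie on chromosome X and were left out. Chromatin accessibility was measured by ATAC-seq, an assay in which transposase inserts adapters where DNA is open, as read counts over a 2001 bp promoter window and a 1001 bp window downstream of the transcription end (gene end) of each gene.

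The cells were neural stem and progenitor cells taken at E12.5 from the dorsal telencephalon and grown in neurosphere medium. The KO group was 4 Kat6b-/- embryos and was set against 4 wild-type (WT) embryos, both on C57BL/6. The Tg group was 4 embryos with the Tg(Kat6b) transgene, made to overexpress Kat6b, and was set against 4 WT embryos, both on an FVB x BALB/c hybrid, a background chosen because the transgene is not viable on C57BL/6. KAT6B is a histone acetyltransferase, and the comparisons ask how its loss and its gain alter open chromatin. Drosophila S2 cells were added to every sample before the assay. The deleted part of Kat6b and the promoter that drives the transgene are not given in the labels.

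Guidance cues steer growing axons and migrating neurons, and their receptors read those cues at the cell surface. Semaphorins signal through plexins, and the secreted ones mostly with neuropilins as co-receptors. Ephrins are held at the membrane and bind Eph receptor tyrosine kinases, Slits bind Robo receptors, and netrins bind DCC, neogenin and UNC5 receptors. In the embryonic cortex many of these genes are already used by progenitors and radial glia, and Slit-Robo signalling takes part in progenitor division as well as in axon guidance.

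Total counts ran from 1384643 to 5015408 per library at promoters and from 198347 to 489743 at gene ends, and the median member held 56 to 223 counts per library at promoters and 8 to 18 at gene ends. Promoter totals were 4023140 to 5015408 in Tg, against 1384643 to 3101439 in WT FVB x BALB/c, with no overlap. In KO they were 2615700 to 3642738, against 2147037 to 2757778 in WT C57BL/6, and overlapped. Gene-end totals were 398691 to 489743 in Tg, against 198347 to 360958 in WT FVB x BALB/c, also without overlap. At the Kat6b promoter itself the Tg libraries had 2744 to 3477 CPM (read counts scaled by TMM-adjusted library totals to a common size), against 223 to 236 CPM in WT FVB x BALB/c. The KO libraries had 296 to 301 CPM there, against 251 to 304 in WT C57BL/6, and since the deleted part is not given this window does not check the KO label. Chromosome Y promoters summed, on the scale of library totals, to 123 to 130 CPM in Tg, against 325 to 412 CPM in WT FVB x BALB/c, and to 200 to 253 CPM in KO, against 276 to 369 CPM in WT C57BL/6. The ranges did not overlap in either comparison, and the part of this difference in the results on members was not tested. The 14 neural stem and progenitor promoters, of which 10 were higher and 1 lower in Tg and 1 higher in KO, summed to 1614 to 1707 CPM in Tg, against 1150 to 1239 in WT FVB x BALB/c, and to 1546 to 1599 CPM in KO, against 1412 to 1460 in WT C57BL/6. Newborn neuron promoters (12 genes, 2 higher and 4 lower in Tg, and Tubb3 alone lower in KO) summed to 292 to 307 CPM in Tg, against 306 to 345 CPM in WT FVB x BALB/c, and to 360 to 386 CPM in KO, against 365 to 395 CPM in WT C57BL/6. The 10 ventral telencephalon promoters, of which 3 were higher and 5 lower in Tg and Dlx5 alone lower in KO, summed to 391 to 402 CPM in Tg, against 330 to 341 CPM in WT FVB x BALB/c, and to 366 to 380 CPM in KO, against 386 to 407 CPM in WT C57BL/6, with no overlap in either comparison. Among all promoters tested, 26.9% were called higher and 30.5% lower in Tg, and 2.09% and 1.90% in KO. The Tg shares moved with promoter level (mean over 16 libraries). They were 62.9% higher and 10.5% lower in the highest quartile of level, and 38.9% and 20.0% in the third. In the second they were 5.08% and 40.4%, and in the lowest 0.640% and 50.9%. The quartiles of the listed genes are not given here, and the lists were not set against promoters of like level. The part of these lists in the results was not tested. No promoter of any marker list was at 0 in all libraries of a group. In a bulk sample, fewer cells of a type and a less open promoter per cell cannot be told apart.

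All 59 member promoters passed the filter on low counts, among 20008 promoters tested. Since every member window has the same length, levels can be compared between genes as CPM. Member promoters had a median level of 50.7 CPM in WT C57BL/6, beside 35.4 CPM for all promoters tested, and spanned 5.61 to 175 CPM. The 5 highest were receptors and a ligand of ephrin signalling together with a transmembrane semaphorin. Epha7, an Eph receptor of the developing cortex, stood at 175 ± 6.58 CPM (mean ± SD, n = 4), Ephb3 at 147 ± 4.43, the ephrin Efnb2 at 147 ± 13.4, Ephb6 at 127 ± 7.85 and Sema6a at 117 ± 0.89. Among these, Ephb3 and Efnb2 did not differ beyond their spread, and the Ephb6 and Efnb2 libraries lay further apart in mean than either SD.

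The 5 lowest were Sema3g at 14.2 ± 3.28 CPM, Sema4a at 12.2 ± 1.31, Ntn5 at 11.4 ± 2.30, Robo4 at 9.21 ± 2.26 and Sema3a, a secreted repellent semaphorin, at 5.61 ± 1.87. Each of the first 4 lay within the larger SD of its neighbour, and Sema3a lay below Robo4 by more than either SD. Robo4 is best known from endothelial cells. Families did not share a level: among the secreted semaphorins, Sema3c stood at 69.8 ± 7.93 CPM and Sema3d at 63.9 ± 7.13, against 5.61 ± 1.87 for Sema3a.

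The promoters whose changes differed most between transgenic and knockout cells were those of Robo1, Sema3d and Sema3c on the negative side and Sema7a and Ephb2 on the positive side, together with Sema4b, and the RefSeq sequences of 5 of them are shown for their base composition. The table of RefSeq promoters (GRCm38.p6, 250 bases before to 50 after a start) held a start for 51 of the 59 members, and which start the counted windows were centred on is not given, so these 300 bases stand for the gene and not for the counted window. The intervals are chr16:72662899-72663198 on the + strand for Robo1, chr5:12382916-12383215 on the + strand for Sema3d, chr5:17574566-17574865 on the + strand for Sema3c, chr4:136835963-136836262 on the - strand for Ephb2 and chr9:57939862-57940161 on the + strand for Sema7a. Capitals mark GGGCGG and CCAAT on either strand, so also CCGCCC and ATTGG.
Robo1: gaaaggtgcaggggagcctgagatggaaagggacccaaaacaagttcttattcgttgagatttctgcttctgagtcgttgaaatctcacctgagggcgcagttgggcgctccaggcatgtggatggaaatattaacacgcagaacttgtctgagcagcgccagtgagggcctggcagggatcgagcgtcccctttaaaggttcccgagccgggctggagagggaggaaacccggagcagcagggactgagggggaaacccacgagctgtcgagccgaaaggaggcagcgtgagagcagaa
Sema3d: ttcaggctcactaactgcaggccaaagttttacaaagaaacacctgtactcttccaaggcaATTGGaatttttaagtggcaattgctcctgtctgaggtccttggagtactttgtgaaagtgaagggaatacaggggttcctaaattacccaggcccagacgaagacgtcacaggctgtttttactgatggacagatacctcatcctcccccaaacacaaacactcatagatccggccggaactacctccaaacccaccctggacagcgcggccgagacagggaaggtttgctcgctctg
Sema3c: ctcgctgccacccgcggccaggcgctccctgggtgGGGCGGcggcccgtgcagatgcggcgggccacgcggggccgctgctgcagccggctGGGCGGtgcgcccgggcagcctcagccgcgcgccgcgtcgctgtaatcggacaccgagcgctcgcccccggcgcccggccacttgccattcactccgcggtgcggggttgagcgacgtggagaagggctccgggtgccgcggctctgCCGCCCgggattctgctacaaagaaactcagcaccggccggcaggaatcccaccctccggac
Ephb2: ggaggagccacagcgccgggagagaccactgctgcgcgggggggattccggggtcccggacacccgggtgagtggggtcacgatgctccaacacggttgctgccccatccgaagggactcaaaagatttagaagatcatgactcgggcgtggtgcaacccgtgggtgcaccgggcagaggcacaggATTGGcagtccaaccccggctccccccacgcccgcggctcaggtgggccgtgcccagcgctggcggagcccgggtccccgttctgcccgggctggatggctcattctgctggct
Sema7a: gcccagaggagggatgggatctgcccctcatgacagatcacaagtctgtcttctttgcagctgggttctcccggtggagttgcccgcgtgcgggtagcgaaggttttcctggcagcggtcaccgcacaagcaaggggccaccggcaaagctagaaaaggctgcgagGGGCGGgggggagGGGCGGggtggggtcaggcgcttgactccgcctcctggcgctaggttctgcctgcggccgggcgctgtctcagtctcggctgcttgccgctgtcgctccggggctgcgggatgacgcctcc
Robo1 had 57% G and C with 15 CpG, and Sema3d 49.7% with 8 CpG. Sema3c had 75.7% with 42 CpG, Ephb2 68.7% with 24 CpG and Sema7a 67.3% with 23 CpG. GGGCGG stood 3 times in the Sema3c window, 2 times in Sema7a and not in the other 3, and CCAAT stood once each in Sema3d and Ephb2.

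In Tg against WT FVB x BALB/c, the Robo promoters and most Slit and secreted semaphorin promoters lost accessibility. Most plexin and EphB promoters gained it. Promoter counts were also scaled by the TMM-adjusted library totals of gene ends (gene-end factors) in place of those of promoters (promoter factors). With gene-end factors only 2 of 4 Robo genes, no Slit and 1 secreted semaphorin (Sema3d) were called lower, and 1 (Sema3f) was called higher. Of the 59 member promoters 18 rose and 20 fell at an adjusted p under 0.05 (edgeR quasi-likelihood test, Benjamini-Hochberg over all 20008 promoters), beside 26.9% and 30.5% of all promoters (57.3% in either direction), so these shares of 30.5% and 33.9% of members were near the background. Tg and WT libraries did not overlap at 35 members (59.3%), beside 45.3% of all promoters. The median log2 change was 0.03 over the members and -0.10 over all promoters. All 4 Robo receptors fell, as did 5 of 7 secreted semaphorins and 2 of 3 Slits, with none of these 14 called higher on promoter factors. By contrast 5 of 7 plexins and 3 of 5 EphB receptors rose, with 1 lower in each family. All plexins but Plxna4 and all EphB genes but Ephb2 lay in the highest quartile of promoter level. There 62.9% of all promoters rose and 10.5% fell, so these family counts were near that share. Robo2, Robo3, Robo4, Slit1, Slit3, Sema3b, Sema3e and Sema3g lay in the second quartile, where 40.4% of all promoters fell and 5.08% rose. Families were not tested against promoters of like level.

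**Figure D1:**
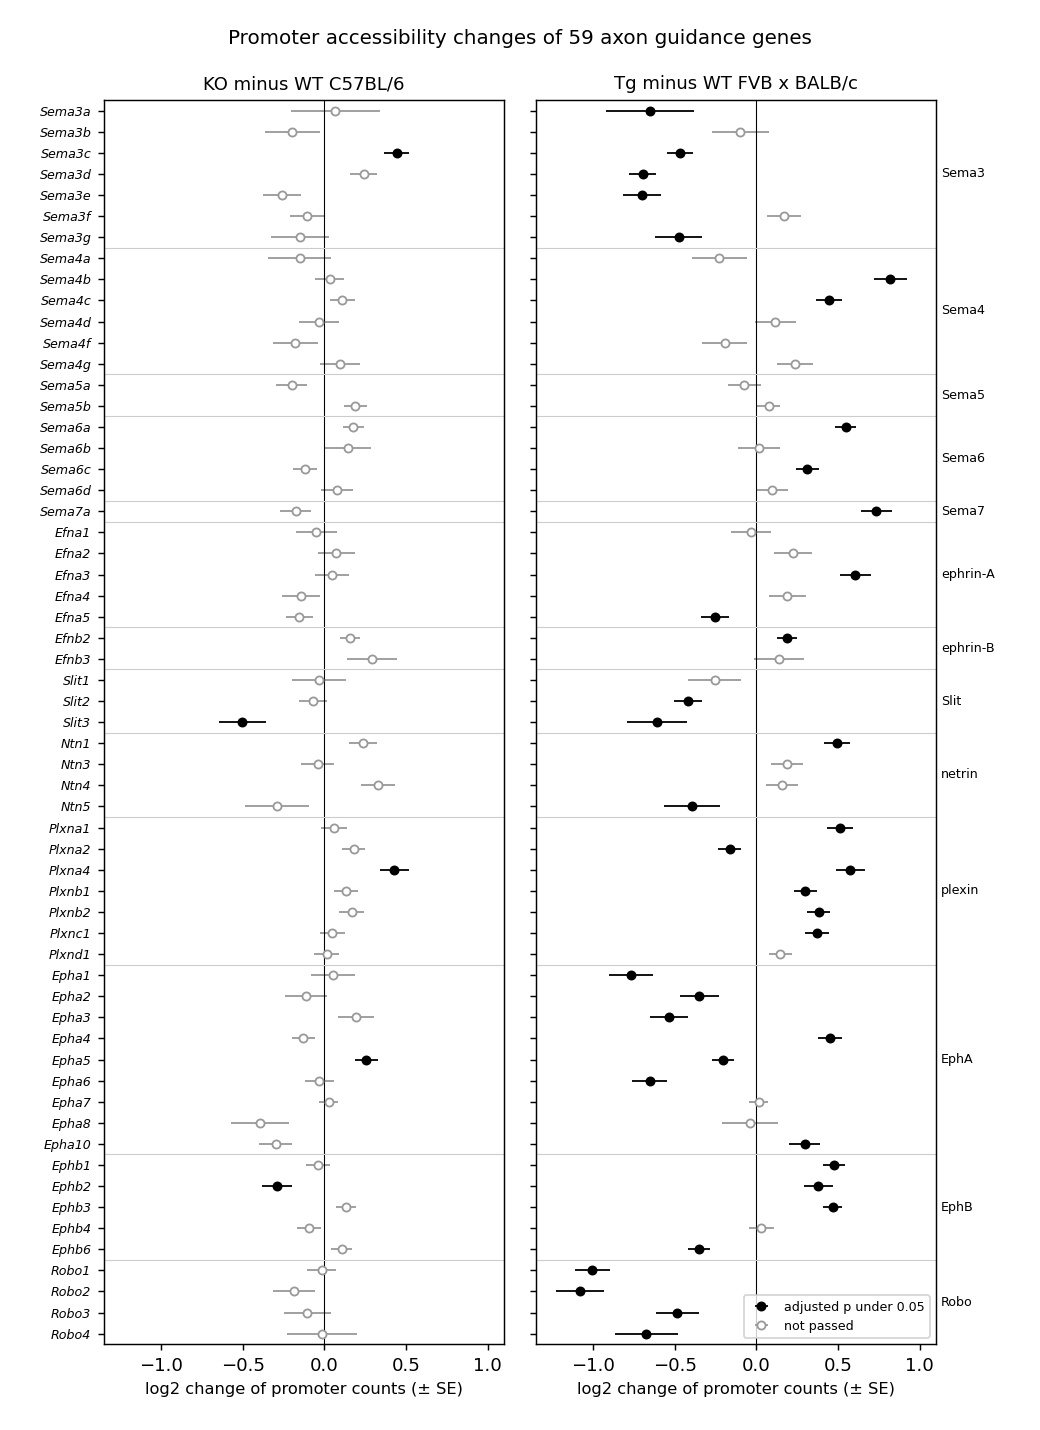
Log2 change of promoter counts (± SE) of each of the 59 genes, grouped by family, for KO minus WT C57BL/6 (left) and Tg minus WT FVB x BALB/c (right), filled where the adjusted p was under 0.05. In Tg all 4 Robo genes lie left of 0 and 6 of 7 plexins right of it, and in KO 5 points are filled.

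Among the ligands, Sema4b, a transmembrane semaphorin, had 55.7, 54.7, 58.5 and 48.7 CPM in Tg, against 25.6, 28.9, 40.0 and 30.1 CPM in WT FVB x BALB/c. All 4 Tg libraries lay above all 4 WT libraries, and the log2 change was 0.82 (SE 0.10, adjusted p = 1.24e-12). Sema7a, the membrane-anchored semaphorin that binds plexin C1 and integrins, had 65.8, 57.2, 65.3 and 55.0 CPM in Tg, against 39.9, 35.0, 32.6 and 38.3 in WT. The groups again did not overlap, with a log2 change of 0.73 (SE 0.095, adjusted p = 8.07e-12).

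Efna3, an ephrin of the A class, had 67.1, 58.2, 63.0 and 55.2 CPM in Tg, against 33.5, 45.6, 45.7 and 34.9 in WT. Every Tg library was higher than every WT library, at a log2 change of 0.60 (SE 0.094, adjusted p = 9.56e-09). Sema6a, a transmembrane semaphorin that binds class A plexins, had 137, 138, 146 and 137 CPM in Tg, against 98.7, 101, 93.1 and 85.5 in WT. Its groups did not overlap, with a log2 change of 0.55 (SE 0.066, adjusted p = 3.49e-13). The ligands Sema4c, Sema6c, Ntn1 and Efnb2 also rose, by 0.19 to 0.50 on the log2 scale. Ntn1, netrin-1, the attractant of commissural axons, was the largest of these 4 at 0.50 (SE 0.080, adjusted p = 2.74e-08).

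The ligands that fell were mostly secreted semaphorins and Slits. Sema3e, which binds plexin D1, had 21.8, 21.1, 22.6 and 21.0 CPM in Tg, against 35.7, 32.6, 37.9 and 34.2 in WT. The Tg libraries were tightly grouped below the WT libraries, with a log2 change of -0.70 (SE 0.12, adjusted p = 1.11e-07). Sema3d had 48.5, 40.9, 50.5 and 49.5 CPM in Tg, against 82.9, 78.2, 72.7 and 70.5 in WT, with no overlap and a log2 change of -0.70 (SE 0.084, adjusted p = 3.67e-13).

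Sema3a, Sema3c and Sema3g were the other secreted semaphorins that fell, by 0.65, 0.47 and 0.48 on the log2 scale. Sema3b at -0.10 (SE 0.17, adjusted p = 0.634) and Sema3f at 0.17 (SE 0.10, adjusted p = 0.149) did not pass. Of the Slits, the repellents read by Robo receptors, Slit3 changed by -0.61 (SE 0.18, adjusted p = 0.00301) and Slit2 by -0.42 (SE 0.087, adjusted p = 1.21e-05), while Slit1 did not pass at -0.26 (SE 0.16, adjusted p = 0.16). Efna5 and Ntn5 were the remaining ligands that fell, at -0.25 and -0.39. Sema4a, Sema4d, Sema4f, Sema4g, both class 5 semaphorins, Sema6b, Sema6d, Efna1, Efna2, Efna4, Efnb3, Ntn3 and Ntn4 did not pass.

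Among the receptors, the Robo family held the largest falls. Robo1, which restrains axon crossing and acts in cortical progenitors, had 21.8, 21.6, 20.7 and 30.2 CPM in Tg, against 48.4, 43.2, 49.2 and 50.6 in WT. The Tg libraries all lay below the WT libraries, with replicate 4 the highest of the Tg group, and the log2 change was -1.005 (SE 0.11, adjusted p = 5.72e-16). Robo2, its partner in Slit reception, had 13.0, 10.9, 11.4 and 12.54 CPM in Tg, against 24.7, 25.3, 19.1 and 35.6 in WT. These groups did not overlap although the WT libraries were spread widely, and the log2 change was -1.08 (SE 0.15, adjusted p = 6.36e-11). Robo4 had 6.74, 8.42, 8.03 and 9.14 CPM in Tg, against 13.0, 15.1, 11.8 and 11.6 in WT, a log2 change of -0.67 (SE 0.19, adjusted p = 0.00174). Robo3, which governs midline crossing, changed by -0.49 (SE 0.13, adjusted p = 0.000923).

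Endothelial marker promoters, of which 6 of 10 fell and none rose in Tg, summed to 137 to 153 CPM in Tg, against 172 to 194 CPM in WT FVB x BALB/c. The 13 mesenchymal and meningeal promoters, of which 7 fell and none rose, summed to 334 to 357 CPM, against 406 to 444 CPM. Of 12 microglia and leukocyte promoters 4 fell and none rose, at 85.8 to 105 CPM in Tg, against 104 to 141 CPM in WT. Of all promoters 30.5% fell and 26.9% rose in Tg. In the second quartile of promoter level 40.4% fell and 5.08% rose, and in the lowest 50.9% and 0.640%. The part of these lists in the changes of Robo4 and the other members that fell was not tested.

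**Figure D2:**
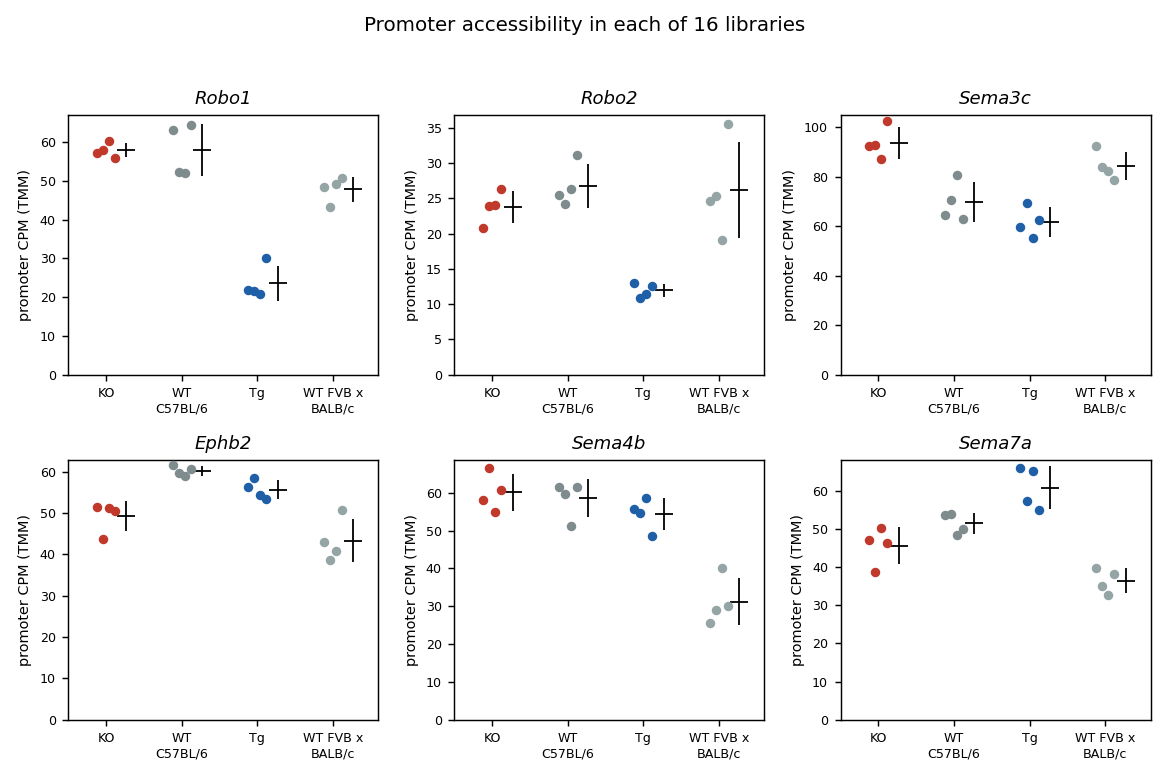
Promoter CPM of 6 genes in each library (points) with mean ± SD (black) for KO, WT C57BL/6, Tg and WT FVB x BALB/c, 4 libraries each, with axes from 0. Robo1 and Robo2 are lowest in Tg, Sema3c is highest in KO and lowest in Tg, and Sema4b is lowest in WT FVB x BALB/c.

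Plexins, the semaphorin receptors, went mostly the other way. Plxna4 had 68.7, 63.6, 76.9 and 66.5 CPM in Tg, against 49.0, 45.2, 45.2 and 44.5 in WT, with no overlap and a log2 change of 0.58 (SE 0.087, adjusted p = 3.39e-09). Plxna1 had 98.0, 87.2, 82.9 and 81.8 CPM in Tg, against 69.0, 59.9, 54.8 and 57.5 in WT, again without overlap, at 0.51 (SE 0.079, adjusted p = 6.03e-09). Plxnb1, Plxnb2 and Plxnc1 rose by 0.30 to 0.38 on the log2 scale, Plxna2 fell by 0.16, and Plxnd1 did not pass at 0.15 (SE 0.069, adjusted p = 0.0591).

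The Eph receptors were divided by class. In the EphA class 5 of 9 fell and 2 rose, against 1 lower and 3 higher with gene-end factors. Epha1 had 14.8, 15.3, 15.4 and 15.1 CPM in Tg, against 28.8, 24.0, 23.5 and 26.7 in WT, with the Tg libraries nearly identical and below all WT libraries, at a log2 change of -0.77 (SE 0.14, adjusted p = 4.17e-07). Epha6 was lower by 0.65, Epha3 by 0.54, Epha2 by 0.35 and Epha5 by 0.20 on the log2 scale, while Epha4, known from cortical neuron migration, was higher by 0.45 and Epha10 by 0.30. Epha7, the highest member promoter, did not pass at 0.01 (SE 0.058, adjusted p = 0.852), nor did Epha8. In the EphB class, Ephb1, Ephb3 and Ephb2 rose by 0.48, 0.47 and 0.38, Ephb6, whose kinase is inactive, fell by 0.35, and Ephb4 did not pass.

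Promoter level moved with these changes. The lowest quartile of level held Sema3a alone, which fell (all promoters there, 50.9% lower and 0.640% higher). The 22 member promoters in the second quartile held 10 that fell and none that rose (all promoters there, 40.4% lower and 5.08% higher). The 17 in the third quartile held 7 that rose and 5 that fell (38.9% higher and 20.0% lower), and the 19 in the highest quartile held 11 that rose and 4 that fell (62.9% higher and 10.5% lower). Across the 59 members the Pearson r of log2 change with mean log2 level was 0.47, beside 0.68 over all 20008 promoters, values that share the libraries and their depth. Robo1 (log2 change -1.005) and Epha6 (-0.65), and on the other side Sema4b (0.82) and Sema7a (0.73), lay in the third quartile, in which the median of all promoters was 0.12 and the middle 50% ran from -0.13 to 0.30. In the highest quartile, in which the median was 0.25, the 4 members that fell were Sema3c, Plxna2, Epha5 and Ephb6.

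**Figure D3:**
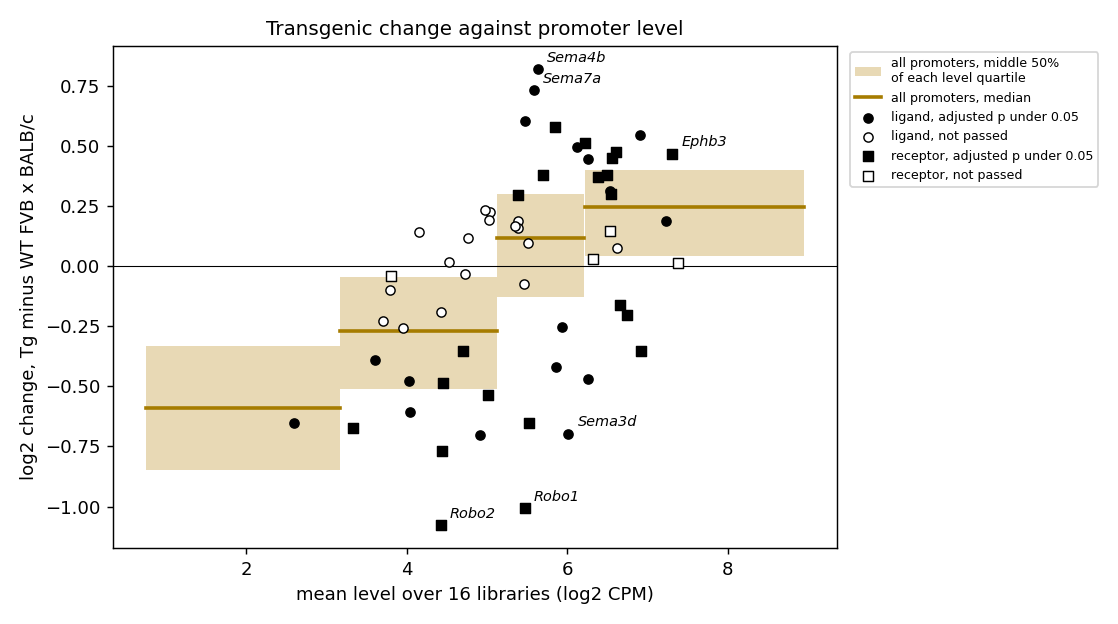
Log2 change in Tg minus WT FVB x BALB/c of the 59 member promoters against their mean level over 16 libraries (log2 CPM), with circles for ligands and squares for receptors, over the median (line) and middle 50% (band) of all promoters in each quartile of level. Robo1, Robo2 and Sema3d lie below the band of their quartile and Sema4b, Sema7a and Ephb3 above it.

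The split of calls in Tg depended on the scaling. Scaled by the TMM-adjusted library totals of gene ends, the median change of all promoters moved from -0.10 to 0.32. Members higher and lower then numbered 35 and 4, against 18 and 20 with promoter factors. The shares of all promoters called with gene-end factors are not given here or below, so these counts do not set the members apart from all promoters. With gene-end factors the median change was -0.43 for the 4 Robo genes, of which 2 were called lower, -0.06 for the 7 secreted semaphorins, with 1 higher and 1 lower, and -0.00 for the 3 Slits, with none called, against 0.79 for the plexins, with 7 of 7 higher. The EphA median of -0.20 became 0.22, with 3 higher and 1 lower. Robo4 lost its call there by edgeR (adjusted p = 0.236) and with offsets that follow abundance (log2 change -0.29, adjusted p = 0.217), as did Sema3e with gene-end factors (log2 change -0.28, adjusted p = 0.0679). Plxna2, which fell on promoter factors, was called higher on gene-end factors (0.26, adjusted p = 0.0307), and Efna5, Epha2, Epha5, Ephb6 and Ntn5 also had positive values there, none of which passed. With library totals the median of all promoters was -0.22, with 16 members higher and 22 lower.

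In KO against WT C57BL/6, few member promoters changed. Of 59 tested, 3 rose and 2 fell, beside 2.09% and 1.90% of all promoters, or 3.99% in either direction (5.08% and 3.39% of members), and the median log2 change was -0.01, as over all promoters. KO and WT libraries did not overlap at 13 members (22.0%), beside 10.0% of all promoters. No Robo, class 4 to 7 semaphorin, ephrin or netrin promoter passed the test, and of these 28 genes the log2 changes ran from -0.29 to 0.33.

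Sema3c, a secreted semaphorin that attracts cortical axons, had 92.4, 92.8, 87.1 and 103 CPM in KO, against 64.7, 70.8, 80.6 and 63.1 CPM in WT C57BL/6. All KO libraries were above all WT libraries, and the log2 change was 0.44 (SE 0.078, adjusted p = 1.23e-05). Slit3 had 21.0, 21.2, 12.4 and 19.2 CPM in KO, against 26.2, 21.6, 29.5 and 29.1 in WT. The KO libraries were the lower ones without overlap, with replicate 3 the lowest, at a log2 change of -0.50 (SE 0.14, adjusted p = 0.0227).

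Of the receptors, Plxna4 had 70.6, 72.5, 65.4 and 62.1 CPM in KO, against 43.1, 56.1, 55.7 and 47.8 in WT, with no overlap and a log2 change of 0.43 (SE 0.088, adjusted p = 0.000344). All 7 plexins had log2 changes above 0, and the other 6 did not pass. Those 6 lay in the highest quartile of promoter level. There the KO changes of all promoters had a median of 0.05, and the middle 50% ran from -0.01 to 0.11. Plxna4 lay in the third quartile, with a median of 0.03 and a middle 50% from -0.06 to 0.11. The plexins were not tested against promoters of like level. Epha5 had 116, 119, 112 and 124 CPM in KO, against 96.7, 109, 97.2 and 93.2 in WT. The KO libraries were all higher, at a log2 change of 0.26 (SE 0.069, adjusted p = 0.0132). Ephb2 had 51.5, 43.7, 51.1 and 50.5 CPM in KO, against 61.6, 59.6, 58.95 and 60.6 in WT. The WT libraries lay within a narrow range above all KO libraries, at a log2 change of -0.29 (SE 0.090, adjusted p = 0.0395).

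The Ephb2 call was lost whichever of the 8 KO and WT libraries was left out, at adjusted p-values of 0.0524 to 0.159 and log2 changes of -0.32 to -0.24. Epha5 lost its call without WT replicate 1 (log2 change 0.25, adjusted p = 0.0502), WT replicate 4 (0.23, adjusted p = 0.0843) or KO replicate 4 (0.23, adjusted p = 0.066), and Slit3 without WT replicate 3 (-0.46, adjusted p = 0.0881), WT replicate 4 (-0.45, adjusted p = 0.107) or KO replicate 3 (-0.38, adjusted p = 0.155). Sema3c and Plxna4 kept theirs in all 8, at adjusted p-values up to 0.000928 and 0.0154. With gene-end factors 2 members were higher and none lower, DESeq2 called 3 higher and none lower, and after thinning all libraries to the lowest depth the 1 remaining call was the fall of Slit3.

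The tests of the difference between the Tg and KO changes, which share no library, passed for 25 members. The Tg change was the more positive at 13 and the more negative at 12, beside 17.0% and 12.6% of all promoters (29.6% in either direction). The largest differences were 0.91 for Sema7a (SE 0.14, adjusted p = 1.2e-08), 0.79 for Sema4b (SE 0.14, adjusted p = 8.71e-07) and 0.67 for Ephb2 (SE 0.13, adjusted p = 8.35e-06). On the other side stood Robo1 at -0.99 (SE 0.14, adjusted p = 2.12e-09), Sema3d at -0.94 (SE 0.12, adjusted p = 2.72e-11) and Sema3c at -0.91 (SE 0.11, adjusted p = 4.22e-12). The Robo1 log2 change was -1.005 in Tg and -0.02 in KO.

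Sema3c, Epha5 and Ephb2 passed in both comparisons with opposite signs. Sema3c was lower by 0.47 in Tg and higher by 0.44 in KO, and its Tg libraries had 59.6, 69.6, 55.4 and 62.7 CPM, against 92.4, 84.0, 82.2 and 78.7 CPM in WT FVB x BALB/c. Its mean was 61.8 ± 5.99 CPM in Tg and 93.7 ± 6.49 CPM in KO, the lowest and the highest of the 4 groups. Epha5 had a log2 change of -0.20 in Tg and 0.26 in KO, with a tested difference of -0.46 (SE 0.097, adjusted p = 5.21e-05). Ephb2 had a log2 change of 0.38 in Tg, where its libraries had 56.2, 58.5, 54.3 and 53.3 CPM, against 43.0, 38.7, 40.9 and 50.6 CPM in WT FVB x BALB/c, and of -0.29 in KO. With gene-end factors Sema3c in Tg was at -0.04 (adjusted p = 0.77, edgeR) and Epha5 in Tg at 0.22 (adjusted p = 0.0624), the sign it had in KO, and the Epha5 difference did not pass (adjusted p = 0.612), while those of Sema3c (-0.56, adjusted p = 0.00181) and Ephb2 (adjusted p = 2.08e-07) did. The KO calls of Epha5 (adjusted p = 0.0793) and Ephb2 (adjusted p = 0.39) were lost there as well, so that none of the 3 passed in both comparisons.

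Plxna4 and Slit3 passed in both with the same sign. Plxna4 had log2 changes of 0.58 in Tg and 0.43 in KO, and their difference did not pass at 0.15 (SE 0.13, adjusted p = 0.392). Slit3 had log2 changes of -0.61 in Tg and -0.50 in KO, with a difference of -0.10 (SE 0.23, adjusted p = 0.77). Its Tg libraries had 9.07, 11.4, 7.40 and 10.2 CPM, against 9.49, 15.1, 20.9 and 13.7 in WT FVB x BALB/c, and WT replicate 1 lay inside the Tg range. Slit3 passed in neither comparison with gene-end factors, at -0.19 in Tg (adjusted p = 0.385, edgeR) and -0.41 in KO (adjusted p = 0.129), and its Tg call was lost without WT FVB x BALB/c replicate 3 (adjusted p = 0.0967). Across the 59 members the Pearson r between the Tg and KO changes was 0.20, beside 0.38 over all promoters. With gene-end factors 28 members differed positively and 4 negatively, where the median of all promoters moved from -0.05 to 0.28, and with offsets that follow abundance 9 and 13, against 13 and 12.

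**Figure D4:**
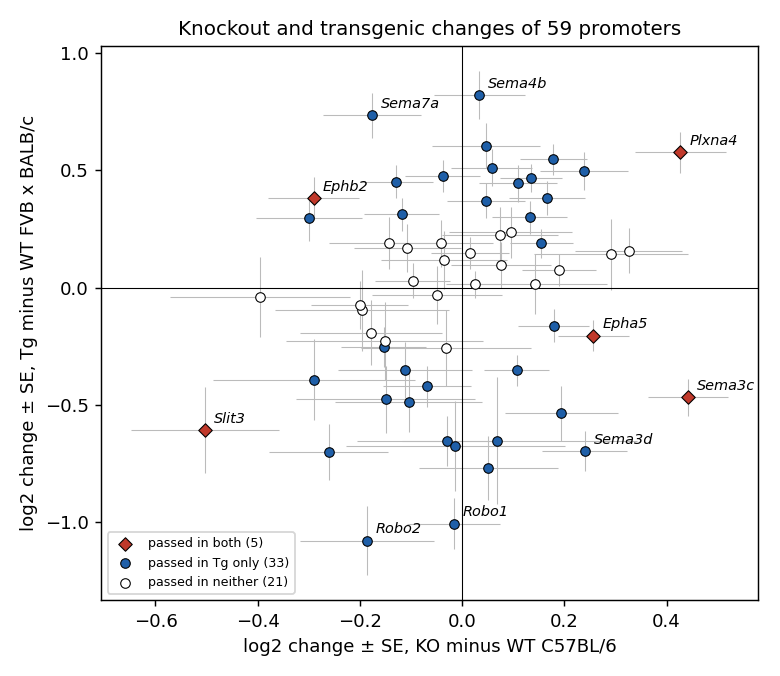
Log2 change (± SE) of the 59 member promoters in KO minus WT C57BL/6 (x axis) and Tg minus WT FVB x BALB/c (y axis), marked by whether the adjusted p was under 0.05 in both, in Tg only or in neither. Of the 5 that passed in both, Sema3c, Epha5 and Ephb2 lie in the quadrants of opposite sign and Plxna4 and Slit3 in those of the same sign.

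The wild-type groups of the backgrounds also differed at member promoters. Set against the C57BL/6 wild type, 4 members were higher in WT FVB x BALB/c and 12 lower there, beside 6.98% and 11.8% of all promoters (6.78% and 20.3% of members), and the groups did not overlap at 16 members, beside 18.7% of all promoters. This comparison shares its libraries with the Tg and KO comparisons, so its values are given side by side with theirs and not correlated. The members higher in WT FVB x BALB/c were 3 secreted semaphorins and Epha5, and those lower were 6 ligands and 6 receptors.

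Sema3g, a secreted semaphorin of the vasculature, had 25.9, 22.4, 17.8 and 23.3 CPM in WT FVB x BALB/c, against 15.8, 12.52, 17.96 and 10.6 CPM in WT C57BL/6, with WT FVB x BALB/c replicate 3 inside the C57BL/6 range by a narrow margin and a log2 change of 0.68 (SE 0.16, adjusted p = 0.000777). Sema3c, with the values above, was higher by 0.30 (SE 0.084, adjusted p = 0.00464) and Sema3d by 0.28 (SE 0.088, adjusted p = 0.0136). Sema3d had 59.3, 69.5, 70.5 and 56.3 CPM in WT C57BL/6, and the lowest WT FVB x BALB/c library lay just above the highest of these. Its call was lost without WT C57BL/6 replicate 1 (adjusted p = 0.0602) or 4 (adjusted p = 0.0938) or WT FVB x BALB/c replicate 1 (adjusted p = 0.0861). Neither Sema3c nor Sema3d passed between wild types with gene-end factors (0.08, adjusted p = 0.651, and 0.06, adjusted p = 0.747) or after thinning (adjusted p = 0.295 and 0.317, edgeR).

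Sema4b had the largest difference between wild types. Its WT FVB x BALB/c libraries, given above, lay below its WT C57BL/6 libraries of 61.6, 59.6, 51.1 and 61.6 CPM without overlap, and the log2 change was -0.93 (SE 0.11, adjusted p = 2.74e-13). Mean levels of Sema4b were thus 54.4 ± 4.16 CPM in Tg, 60.1 ± 4.91 CPM in KO cells, 31.2 ± 6.20 CPM in the hybrid WT and 58.5 ± 5.01 CPM in WT C57BL/6. Slit3, lower in the hybrid WT, had a log2 change of -0.88 (SE 0.16, adjusted p = 6.94e-06). Epha6 had 45.5, 40.8, 39.6 and 43.1 CPM in WT FVB x BALB/c, against 59.7, 63.5, 59.9 and 66.6 in WT C57BL/6, without overlap, at a log2 change of -0.56 (SE 0.10, adjusted p = 2.31e-06). With gene-end factors 1 member was higher and 27 lower, while the median of all promoters moved from 0.02 to -0.19, and library totals gave 6 and 11.

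Gene ends held few counts, and 50 of 59 members passed the filter on low counts there, among 15186 gene ends tested. Gene-end CPM are scaled to gene-end totals, so they cannot be set against promoter CPM of the same gene. In Tg 2 rose and 1 fell, beside 4.63% and 1.64% of all gene ends (6.27% in all), and the groups did not overlap at 3 members (6%), beside 10.1%. Efna2, an ephrin, had 182, 169, 212 and 188 CPM at its gene end in Tg, against 113, 136, 139.7 and 93.9 in WT FVB x BALB/c. The Tg libraries were all higher, at a log2 change of 0.62 (SE 0.17, adjusted p = 0.00533). Sema4c had 170.5, 204, 177 and 169 CPM in Tg, against 130.4, 142, 113 and 104 in WT, without overlap, at 0.53 (SE 0.17, adjusted p = 0.0276).

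At the gene end of Epha3 the Tg libraries had 17.3, 21.8, 14.8 and 18.5 CPM, against 53.4, 45.2, 33.2 and 31.3 CPM in WT FVB x BALB/c. All Tg libraries were lower, at a log2 change of -1.20 (SE 0.35, adjusted p = 0.013). The Epha3 promoter fell with promoter factors, but did not pass with gene-end factors (-0.12, adjusted p = 0.47, edgeR). No member gene end passed in KO by edgeR (0.672% of gene ends were higher and 0.849% lower, or 1.52% in all, and groups did not overlap at 4 members, beside 5.12%) or by DESeq2, with 6 by edgeR at an unadjusted p under 0.05. No difference between the Tg and KO changes passed there, with 4 at an unadjusted p under 0.05 (2.66% of gene ends passed, 2.11% higher and 0.553% lower). These percentages are of calls by adjusted p. The shares of all gene ends at an unadjusted p under 0.05 are not given here. The counts of 6 and 4 therefore do not set the members apart from all gene ends. Between wild types the only call was Sema3b, a secreted semaphorin, with 157, 104, 136 and 125 CPM in WT FVB x BALB/c, against 184, 268, 249.9 and 208 in WT C57BL/6, at a log2 change of -0.77 (SE 0.17, adjusted p = 0.000552), beside 2.18% of gene ends lower, 1.15% higher and 3.33% in either direction, and groups did not overlap at 4 members, beside 7.09%.

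The gene-end calls in Tg depended on the scaling and on single libraries. Both rises in Tg were lost with library totals and with offsets that follow abundance (Efna2 adjusted p = 0.0683 and 0.155), and Sema4c was also lost without WT FVB x BALB/c replicate 3 (adjusted p = 0.109) or 4 (adjusted p = 0.0924) or Tg replicate 2 (adjusted p = 0.123). Epha3 was lost without WT FVB x BALB/c replicate 1 (adjusted p = 0.135) or Tg replicate 3 (adjusted p = 0.0533).

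Members that are neighbours on a chromosome shared a direction in some clusters and not in others. Robo1 and Robo2 stand next to each other on chromosome 16 in the order of counted genes, and Robo4 and Robo3 on chromosome 9, and all 4 fell in Tg. On chromosome 5, Sema3d and Sema3a are neighbours with Sema3e past 1 further gene, and these 3 fell. The ephrins Efna1, Efna3 and Efna4 follow each other on chromosome 3, where Efna3 rose by 0.60 and Efna1 at -0.03 and Efna4 at 0.19 did not pass. Over the 16 libraries, the members whose log2 CPM followed Robo2 most closely were Robo1 (Pearson r 0.89), Epha1 (0.87) and Slit2 (0.84), and those nearest to Sema4b were Sema4c (0.84), Sema6a (0.77) and Plxna1 (0.67). These libraries share groups and depth, so the values describe likeness only.

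The base composition of the promoter sequences is given as a description, with no test. The median G and C content of the RefSeq windows was 67.1% for 14 that rose, 59.5% for 20 that fell and 66.7% for 17 that did not pass. The ranges overlapped, at 55.7% to 74.7% for those that rose and 41.3% to 78.3% for those that fell, and 4 of the 18 that rose (Ntn1, Plxna1, Plxna4 and Sema6a) had no sequence in the table. Across the 51 the Pearson r of G and C content with the Tg log2 change was 0.39 and with mean level 0.40. On either strand GGGCGG occurred in 12 of 14 that rose, 13 of 20 that fell and 14 of 17 that did not pass, and CCAAT in 7 of 14, 3 of 20 and 8 of 17. GGGCGG and CCAAT can share bases, as where CCGCCC runs into CCAAT. Counted over windows, 71.6% of 67 member windows held GGGCGG, beside 35.7% of 32851 RefSeq windows of the same length, and 29.9% held CCAAT, beside 37.4%. TATAAA was found in 2.99% of member windows, beside 13.6% of all, CAGCTG in 16.4%, beside 16.3%, CACGTG in 7.46%, beside 7.15%, and TGACGT in 4.48%, beside 7.51%. Among the windows shown above, that of Robo1, the member with the smallest adjusted p among those that fell, held neither GGGCGG nor CCAAT.

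Other genes of the pathway were taken from lists of partners and of intracellular effectors. Of 29 partner promoters, which include the netrin receptors and the neuropilins, 9 rose and 10 fell in Tg. These counts were near the shares of all promoters, 26.9% higher and 30.5% lower. The median log2 change was -0.00, beside -0.10 for all promoters. The netrin receptors were divided: Neo1, neogenin, was higher by 0.83 (SE 0.068, adjusted p = 8.08e-24) and Unc5b by 0.45 (SE 0.069, adjusted p = 5.54e-09), while Unc5c changed by -0.45 (SE 0.070, adjusted p = 2.12e-08) and Dcc by -0.26 (SE 0.098, adjusted p = 0.0168). Rgma, the neogenin ligand, had the largest rise of the list at 0.85 (SE 0.077, adjusted p = 1.69e-20), Flrt2, which binds UNC5 receptors, the largest fall at -1.19 (SE 0.15, adjusted p = 8.74e-12), and the neuropilins Nrp2 and Nrp1 rose by 0.48 and 0.18. In KO, 1 partner, Rgmb, rose by 0.40 (SE 0.12, adjusted p = 0.0434), and 1, Ret, changed by -0.45 (SE 0.13, adjusted p = 0.0241). Of all promoters 2.09% rose and 1.90% fell in KO. No partner was called in KO with DESeq2 or without WT C57BL/6 replicate 1, 3 or 4, and without KO replicate 1 none rose and 1 fell.

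Of 44 effector promoters, the kinases, exchange factors and cytoskeletal proteins downstream of the receptors, 23 rose and 3 fell in Tg, with a median log2 change of 0.20, beside 26.9% of all promoters higher and 30.5% lower. Of these 44, 20 lay in the highest quartile of promoter level, where 16 rose and none fell (all promoters there, 62.9% higher and 10.5% lower). In the third quartile 7 of 18 rose and 2 fell (all promoters there, 38.9% higher and 20.0% lower). In the second none of 6 rose and 1 fell (5.08% higher and 40.4% lower). The list was not tested against promoters of like level. The largest rise was that of Chn1, alpha-chimaerin, which acts downstream of Eph receptors, at 0.75 (SE 0.089, adjusted p = 1.47e-13). In KO, 2 effectors rose, Dpysl3 by 0.33 (SE 0.098, adjusted p = 0.0285) and Rhoa by 0.20 (SE 0.060, adjusted p = 0.0288), and none fell, beside 2.09% and 1.90% of all promoters. No effector was called in KO with DESeq2, without WT C57BL/6 replicate 2 or 3 or without KO replicate 1, and library totals gave none higher and 1 lower. With gene-end factors 17 partners were higher and 2 lower in Tg, 38 effectors were higher and none lower, and in KO 1 of each list was higher and none lower. Offsets that follow abundance gave 15 higher and 6 lower effectors, and library totals gave 19 and 7.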

How the data were processed

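ATAC-seq counts of 16 libraries, 4 per group and each from a separate embryo per the labels, were analysed at promoters and gene ends. The authors deposited whole-number read counts per region, counted with featureCounts on mm39 per the submitters' processing notes. How reads were aligned and filtered, with which counting settings, and how Drosophila reads were handled is not given in the sources used here. ATAC reads carry no strand, and Robo1, Ephb2, Epha5, Ephb4 and Sema5a have another start within 2 kb in RefSeq, so their windows may hold reads of both. Gene IDs were matched to RefSeq symbols (20091 of 20113). The 32 files of single libraries equal the columns of the series tables. Enhancer regions were not used here.

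After removing chromosome Y, Xist and Tsix (17 regions per class), filterByExpr left 20008 promoters and 15186 gene ends. Each class was fitted once by quasi-likelihood (edgeR 4.0.16, limma 3.58.1, R 4.3.3, TMM, robust) with a coefficient per group and Benjamini-Hochberg adjustment over all regions and a threshold of 0.05. CPM are TMM-scaled. Standard errors come from the quasi-likelihood statistic. The common dispersion gave a coefficient of variation of 0.0378 (promoters) and 0.0777 (gene ends). Between replicates counts differed by more than sampling noise, so none was counted as a duplicate. The tests were tried on simulated data first.

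Members, lists and tests were chosen with earlier results of these data known. Values in every library are given for the 6 largest called promoter rises and falls in KO and Tg, the 3 largest in the other comparisons, up to 4 at gene ends, and the 5 highest and lowest levels. Alternatives were other scalings, DESeq2 1.42.0, no filter, fewer samples or chromosomes in the fit, thinning, a replicate block and leaving out each library.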

Additional observations from a re-analysis of the deposited data

Results flagged for a closer look

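Of 22 members examined in 4 groups each (88 groups), a library stood apart from the other 3 of its group in 4 cases, where chance alone gives about 1 in 20 groups. That is about as many as chance gives, so the 4 cases are listed as a description only. Robo1 had 30.2 CPM in Tg replicate 4, the highest of its group, against 20.7 to 21.8 CPM in the others. Without that library the Robo1 change in Tg was -1.16. Sema6a had 146 CPM in Tg replicate 3, against 137 to 138 CPM in the others. Plxna4 had 49.0 CPM in WT FVB x BALB/c replicate 1, against 44.5 to 45.3 CPM in the others. Ephb2 had 43.7 CPM in KO replicate 2, the lowest of its group, against 50.5 to 51.5 CPM in the others, and without it the KO change was -0.24 (adjusted p = 0.159, edgeR).

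The change in Tg differed from that in KO by the interaction test at 13 promoters with a more positive Tg change and 12 with a more negative one. The largest of these were Sema7a at 0.91, Sema4b at 0.79 and Ephb2 at 0.67 on the log2 scale, and Robo1 at -0.99, Sema3d at -0.94 and Sema3c at -0.91.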

How the results depend on the processing

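Of 849 values of called members under settings that keep all libraries, 94 lost the adjusted threshold with their sign kept, and 9 changed sign. Of those 9, only Plxna2 in Tg still passed (adjusted p = 0.0307, edgeR). In Tg with gene-end factors Plxna2 (0.26), Efna5 (0.17), Epha2 (0.070), Epha5 (0.22), Ephb6 (0.073) and Ntn5 (0.021) turned positive, and with offsets that follow abundance Efnb2 turned negative (-0.055). With gene-end factors the difference of effects at Plxna2 was 0.0056 and the wild-type difference at Epha5 was -0.026. Of 904 values with a library of the comparison left out, 63 lost the threshold and 0 changed sign. In Tg these were Ntn5 (6 of its 8 libraries), Sema3a (5), Plxna2 (4), Epha5 (WT replicate 1, Tg replicate 3), Slit3 and Epha2 (WT replicate 3) and Efnb2 (WT replicate 4), beside those named at gene ends, and between wild types Epha5 (6), Robo1 (3) and Plxna1 (2), beside Sema3d, and for the difference of effects Sema3e (5 of 16), Slit2 (4) and Sema4c (1), the rest being the KO losses of Ephb2, Epha5 and Slit3. Leaving out each library in turn gave 2 to 5 higher and 0 to 2 lower promoters in KO, 17 to 20 and 16 to 20 in Tg, 12 to 15 and 10 to 13 for the difference of effects, and 2 to 5 and 10 to 14 between wild types. At gene ends it gave 1 to 2 higher and 0 to 1 lower in Tg, 0 and 0 in KO, 0 and 0 to 1 for the difference, and 0 and 1 between wild types. With gene-end factors promoter calls were 35 higher and 4 lower in Tg, 28 and 4 for the difference, 1 and 27 between wild types, and 0 lower in KO. DESeq2 called 0 lower promoters in KO, 2 higher between wild types and 0 lower gene ends in Tg, where it gave Epha3 no adjusted p-value. Thinned to the smallest total, 0 promoters were higher and 1 lower in KO, 2 higher between wild types, and 1 gene end was higher and 0 lower in Tg. Epha3 was not among the gene ends tested after thinning. Library totals gave 0 higher gene ends in Tg and 1 lower for the difference, and offsets that follow abundance gave 0 higher in Tg. The cause was not tested, apart from thinning, which removes reads, and leaving out libraries, which removes samples. The replicate block left 1 lower promoter in KO, 2 higher and 6 lower between wild types and 0 gene ends between wild types, where Sema3b at the gene end had an adjusted p of 0.445 (edgeR) and the Sema3g promoter 0.0964. Replicate numbers shared across groups showed no pairing, with correlations of deviations of -0.11 to 0.06 at promoters. Gene ends held 8 to 18 counts per library for the median member, which limits what can be detected there.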

Other observations

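Ligands and receptors known to bind each other, chosen after their values were seen, were set side by side at promoters in Tg against WT FVB x BALB/c. Sema7a and its receptor Plxnc1 both rose, by 0.73 and 0.37 on the log2 scale, while in KO neither passed, at -0.18 and 0.05. Sema3e fell by 0.70 and its receptor Plxnd1 did not pass at 0.15. Sema6a rose by 0.55 and, of its receptors, Plxna4 rose by 0.58 and Plxna2 fell by 0.16. Slit2 and Slit3 fell by 0.42 and 0.61, and their receptors Robo1 and Robo2 had changes of -1.005 and -1.08. Sema4d did not pass at 0.12, and its receptor Plxnb1 rose by 0.30. Ntn1 rose by 0.50, and of its receptors Neo1 rose by 0.83 and Dcc fell by 0.26. With gene-end factors Plxna2 was instead higher (0.26, adjusted p = 0.0307, edgeR), Plxnd1 (0.57) and Sema4d (0.53) were called higher, and Sema3e, Slit2 and Slit3 were not called (-0.28, -0.00 and -0.19). No test bears on these pairs as pairs.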
